A study of Homo sapiens with 2 samples.

Results

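Glucosidases I and II of the endoplasmic reticulum (ER) are described here through the 3 genes that encode them, out of 33538 genes listed. GANAB (ENSG00000089597; GRCh38 chromosome 11, 62624826 to 62646726, minus strand) encodes the alpha subunit of glucosidase II, which carries its active site. PRKCSH (ENSG00000130175; chromosome 19, 11435288 to 11450968, plus strand) encodes its beta subunit, and MOGS (ENSG00000115275; chromosome 2, 74461057 to 74465410, minus strand) encodes glucosidase I. The genes were taken by symbol, with earlier results of these data known, and all 3 were counted in both libraries.

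The first library came from UMUC3 cells with a knockdown of GANAB and the second from control UMUC3 cells. UMUC3 is an established human bladder carcinoma line, and both kinds of cell had been placed in the bladders of C57 nude mice for 14 days before single-cell RNA sequencing. The sources used here do not give how the knockdown was made or whether the control cells carried a matching construct. Barcodes with at least 15000 unique molecular identifiers (UMIs) and at most 20% of them from mitochondrially encoded genes were read as cells, which left 2672 knockdown and 4385 control cells. Each group is 1 library, so library and group cannot be told apart and nothing could be tested between samples. All intervals given are 95% intervals and cover counting error only.

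Every N-glycan is transferred to a new protein in the ER with a branch that ends in glucose residues. Glucosidase I removes the outermost glucose, and glucosidase II removes those that follow. Trimming to a single glucose lets the lectin chaperones calnexin and calreticulin hold the folding protein, and removal of the last glucose releases it. The beta subunit of glucosidase II holds a lectin domain and the signal that keeps the enzyme in the ER. Inherited loss of either subunit is a known cause of polycystic liver disease in people.

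The knockdown library held 132709954 UMIs in cells with a median of 40933 UMIs per cell, against 214188781 UMIs and a median of 44046 in the control library. The median mitochondrial share was 0.923% in knockdown and 1.51% in control cells. Levels are given in CPM (UMIs summed over the cells of a library and scaled to a common total). The 5 carcinoma markers summed to 487 CPM in knockdown and 365 in control cells, with 3 and 2 of them at 10 CPM or more. The highest was the keratin KRT18, at 273 and 202. The 5 mesenchymal markers summed to 5908 and 3723, with 4 of them at 10 CPM or more in each library. VIM was the highest of these, at 5697 and 3548. The 7 urothelial markers summed to 3.39 and 1.63 CPM, with 2 of them at 0 in each library, so the cells had few transcripts of differentiated urothelium. The 5 T and NK cell markers summed to 0 CPM in knockdown and 0.00467 in control cells, and the 6 fibroblast markers to 12.1 and 14.8. Of the barcodes, 4 passed as cells in both libraries.

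The stretches of promoter shown next belong to GANAB and PRKCSH, the members with lower counts in the knockdown library, and to CALR, the calreticulin gene, which was lower as well. MOGS had no window in the promoter set used, so its promoter could not be searched or set beside these. All are from RefSeq on GRCh38.p14, 5′ to 3′ on the strand of the gene. The GANAB stretch, chr11:62646727-62646847, fills the 121 bases between GANAB and INTS5, the next gene, and a CCAAT box is in capitals.
GANAB upstream: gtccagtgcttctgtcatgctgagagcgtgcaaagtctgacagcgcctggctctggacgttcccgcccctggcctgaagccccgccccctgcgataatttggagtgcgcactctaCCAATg
The second CCAAT of GANAB lay at chr11:62646680-62646709, within the annotated gene.
GANAB second box: cgctcaggtcgaaCCAATcataaggccgga
The first PRKCSH window held no CCAAT but 1 GC box (GGGCGG, in capitals on the opposite strand) at chr19:11435523-11435552.
PRKCSH GC box: tcggctctggcaCCGCCCccactcctgcct
CALR held an ER stress response element (a CCAAT followed after 9 bases of any kind by CCACG) on the opposite strand at chr19:12938378-12938407, with the whole element in capitals.
CALR element: cccacgCGTGGTCGACCATCATTGGtcggt

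These motifs were searched on both strands of RefSeq windows of 300 bases around the start of each gene. A full element counts as a CCAAT as well. Of 35116 such windows, 34.6% held CCAAT, 45.0% held GGGCGG and 0.0769% held the full ER stress response element. The GANAB window held 4 GC boxes and the CALR window 2, so a GC box does not set PRKCSH apart. The 1 GANAB window and the 3 PRKCSH windows held no full element, while the PRKCSH window at chr19:11435823-11436122 held 5 CCAAT matches. A match describes letters and not a site in use.

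GANAB, the knockdown's target, was counted at 42.3 CPM in knockdown cells (5615 UMIs; exact Poisson interval 41.2 to 43.4) and at 127 in control cells (27113 UMIs; 125 to 128). Knockdown over control gave a log2 ratio of -1.58 (-1.62 to -1.54 by the exact conditional binomial interval), a level 2.99-fold lower. PRKCSH stood at 46.4 CPM in knockdown cells (45.2 to 47.6) and 80.1 in control cells (78.9 to 81.3), a log2 ratio of -0.79 (-0.83 to -0.75). MOGS stood at 14.3 in knockdown (13.7 to 14.9) and 13.2 in control cells (12.7 to 13.6), a log2 ratio of 0.12 (0.03 to 0.20). The knockdown library was thus lower in both subunits of glucosidase II, more so in the alpha subunit, and not in glucosidase I.

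Across 7872 genes with at least 10 CPM in either library the median log2 ratio was -0.07. A ratio of at least 1.5 was used as a rule of size, and 10.4% of these genes were lower by it and 7.69% higher. GANAB and PRKCSH were among the lower genes, and MOGS passed the rule in neither direction. Only 67 measured genes had a lower ratio than GANAB, whereas 397 had a lower ratio than PRKCSH. A ratio of the size seen for PRKCSH was therefore not rare between these libraries.

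The balance between the members differed accordingly. Of the UMIs of both glucosidase II subunits, GANAB gave 47.7% in knockdown cells (Clopper-Pearson interval 46.8 to 48.6) and 61.2% in control cells (60.8 to 61.7). Of the UMIs of GANAB and MOGS together, GANAB gave 74.8% in knockdown (73.8 to 75.7) and 90.6% in control cells (90.3 to 90.9). These are shares of 3′ end counts, in which 1 captured molecule gives 1 UMI whatever its length. How evenly the genes were captured was not measured, and the shares are not protein amounts.

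Barcodes with 1 to 100 UMIs, which hold mainly free RNA, carried GANAB at 27.2 CPM in the knockdown library (23.3 to 31.5) and 101 in the control library (94.3 to 108). PRKCSH was at 45.1 there in the knockdown and 85.9 in the control library, and MOGS at 16.9 and 13.1. The free RNA of each library thus parted in the same direction as its cells. No cell type in these samples is known to lack the 3 genes, so the free RNA's part in the counts per cell was not tested.

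At full depth a knockdown cell had a median of 1 GANAB UMI and a control cell a median of 5. The tenth and ninetieth percentiles were 0 and 5 UMIs in knockdown cells and 1 and 12 in control cells, so the groups overlapped widely. For PRKCSH the medians were 2 and 3 UMIs, with ninetieth percentiles of 5 and 7. For MOGS the median was 0 in both libraries and the ninetieth percentile 2 in both. The highest GANAB count was 23 in a knockdown cell and 43 in a control cell.

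To compare cells at a single depth, each was thinned at random to 15000 UMIs, which left out no cell. GANAB then had no UMI in 56.4% of knockdown cells (Clopper-Pearson interval 54.5 to 58.3) and 19.98% of control cells (18.8 to 21.2). PRKCSH had none in 51.2% of knockdown (49.3 to 53.1) and 30.2% of control cells (28.8 to 31.6), and MOGS in 80.1% (78.6 to 81.6) and 82.0% (80.8 to 83.1). Control cells had a median of 2 GANAB UMIs at this depth, which 12.8% of knockdown cells (11.6 to 14.1) and 52.1% of control cells (50.6 to 53.6) reached. The share of knockdown cells was 30.8% at 1 UMI, 9.96% at 2 and 2.13% at 3. Control counts were themselves most often at 1 UMI (27.9% of cells), so a part of the knockdown cells at the control level could not form a separate peak at this depth.

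**Figure D1:**
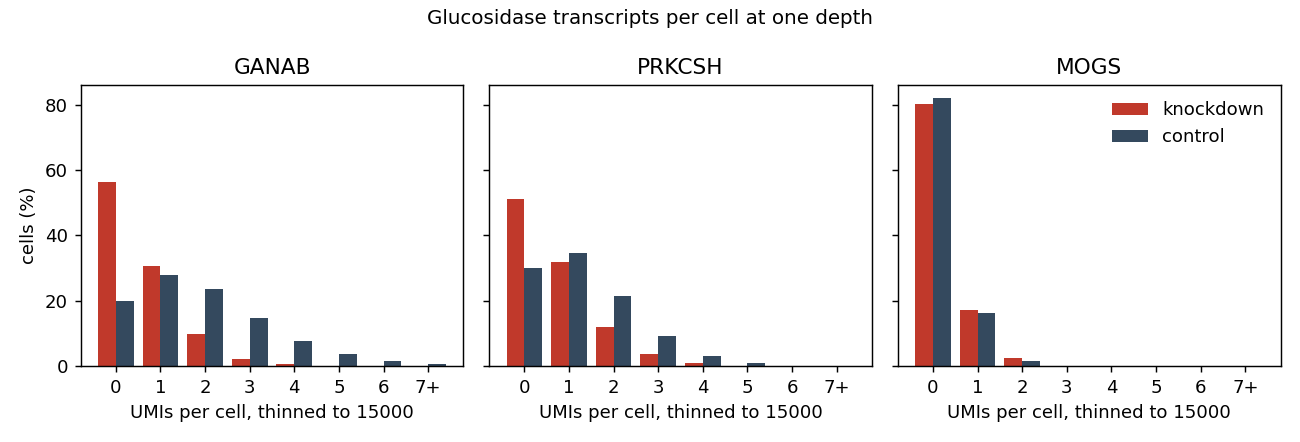
Share of cells (%) by the number of UMIs of each gene after thinning every cell to 15000 UMIs, with knockdown cells in red and control cells in dark blue. GANAB was at 0 in 56.4% of knockdown and 19.98% of control cells, PRKCSH parted less, and the MOGS bars nearly coincide.

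In counts this sparse most of the spread between cells is counting noise. At the thinned depth the mean GANAB count was 0.601 in knockdown and 1.84 in control cells, and the variance over the mean, which is 1 for pure counting, was 1.11 and 1.28. Beyond counting, this left a coefficient of variation of 42.9% in knockdown and 39.1% in control cells. The same quantity was 48.1% and 29.2% for PRKCSH, and 42.6% and 22.1% for MOGS. For MOGS it came from a variance over the mean of 1.04 in knockdown and 1.01 in control cells, close to pure counting. No interval was computed, so the MOGS figures do not show variation beyond counting. Among genes of nearly the same mean, the variance over the mean of GANAB was higher than that of 24.8% of 1126 genes in knockdown cells and 47.2% of 460 genes in control cells. PRKCSH was above 38.2% and 12.7% of its like genes and MOGS above 17.8% and 7.26%. Beside genes of like mean none of the 3 was thus among the most variable, and in control cells PRKCSH and MOGS were among the more even ones.

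In each library as a whole, cells without a UMI were more numerous than a single level shared by all cells would give, though not always beyond counting error. At full depth 697 knockdown cells had no GANAB UMI, and Poisson counting at each cell's own depth and 1 shared level gives 526. In control cells the numbers were 149 and 71.2. For PRKCSH 529 knockdown cells had none, with 463 from the shared level, and 253 control cells, with 242. For MOGS the observed and shared-level numbers were 1456 and 1416 in knockdown and 2460 and 2406 in control cells. The shared-level number lay within the Clopper-Pearson interval of the observed share for MOGS in both libraries and for PRKCSH in control cells. The excess was widest for GANAB, in both libraries. In cells of 15000 to 25000 UMIs the order was turned round for the other two members. There 159 knockdown cells had no PRKCSH UMI, with 185 from the shared level, and 76 control cells, with 109. For MOGS the numbers were 317 and 352 in knockdown and 399 and 415 in control cells.

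Depth decided much of whether a knockdown cell showed GANAB at all. In knockdown cells of 15000 to 25000 UMIs, 46.5% had no GANAB UMI (41.9 to 51.1), against 11.4% of control cells of that depth (8.88 to 14.4). From 40000 to 60000 UMIs the shares were 18.8% (15.9 to 21.9) and 1.49% (0.924 to 2.27). Above 100000 UMIs, 7 of 191 knockdown cells had none, or 3.66% (1.49 to 7.41), and 0 of 162 control cells, with an upper bound of 2.25%. A count of 0 at low depth can therefore not be read as absence of the transcript. A UMI in a deep barcode need not be the cell's own either, since free RNA held GANAB and doublets were not called.

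Relative to all transcripts, PRKCSH was highest in the shallowest cells of both libraries. It stood at 60.5 CPM in knockdown cells of 15000 to 25000 UMIs (55.7 to 65.7) and 43.4 in those of 40000 to 60000 (41.2 to 45.7). In control cells the levels were 106 (100.1 to 112) and 78.2 (76.1 to 80.3). MOGS followed the same course in knockdown cells, at 19.5 (16.8 to 22.5) and 13.7 (12.5 to 15.01), and stood at 15.7 (13.4 to 18.2) and 12.2 (11.4 to 13.0) in control cells. GANAB was lowest at 25000 to 40000 UMIs, at 37.4 in knockdown and 114 in control cells, and highest above 100000 UMIs, at 45.4 and 140.4.

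The ratio between the libraries changed little along this axis. The log2 ratio of GANAB ran between -1.65 and -1.55 over the 5 depth bins and that of PRKCSH between -0.85 and -0.73. That of MOGS lay between 0.00 and 0.31, and its interval included 0 in 3 of the bins. Among the quartiles of depth within a library, GANAB was at 38.9, 37.9, 42.4 and 44.7 CPM in knockdown cells and 121, 115, 126 and 135 in control cells, from the shallowest quartile to the deepest. PRKCSH was at 56.4, 46.4, 43.0 and 45.7 in knockdown and 92.6, 81.9, 78.2 and 76.7 in control cells.

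**Figure D2:**
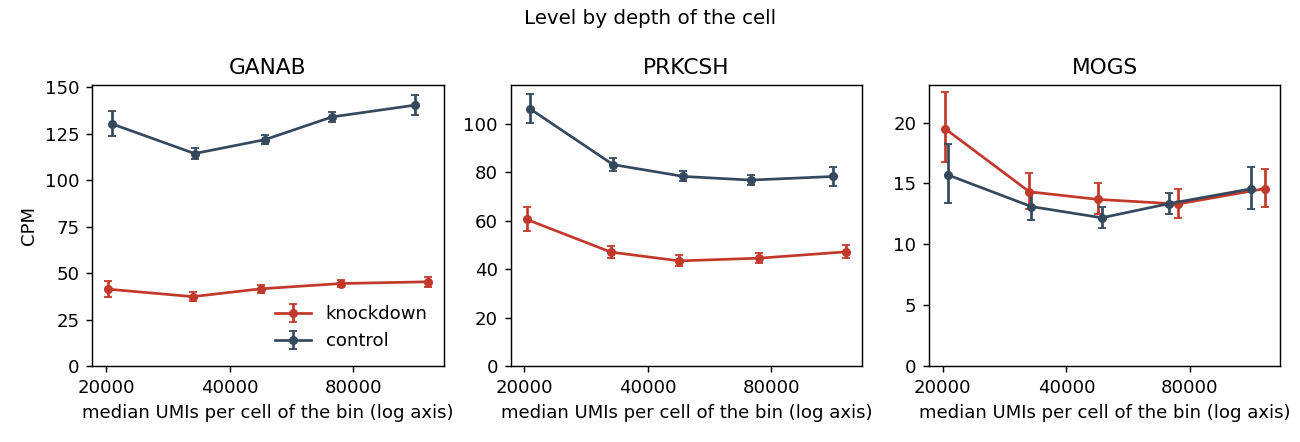
Level in CPM of each gene in 5 bins of UMIs per cell, drawn at the median depth of the bin on a log axis, with exact Poisson 95% intervals, for knockdown (red) and control cells (dark blue). PRKCSH was highest in the shallowest bin of both libraries (60.5 and 106 CPM), and GANAB was apart between the libraries in every bin.

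Cell cycle phase was called from thinned counts with 42 S phase and 52 G2 and M phase genes. It assigned 68.3% of knockdown cells to G1, 20.1% to S and 11.6% to G2M, against 44.9%, 37.7% and 17.3% of control cells. Scores of 102 knockdown and 306 control cells lay within 0.02 of a boundary, and the calls are ranges of a score that free RNA can shift. Cells called S or G2M were deeper, with medians of 65104 and 64683 UMIs in knockdown cells, beside 35885 in G1. Control cells had medians of 54554 in S, 56727 in G2M and 34997 in G1.

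Over all depths GANAB was higher in S and G2M than in G1 in both libraries. It stood at 45.8 CPM in S, 46.1 in G2M and 39.4 in G1 knockdown cells, and at 129, 137 and 117 in control cells. The folds of G2M over G1 were 1.17 in knockdown (1.09 to 1.26) and 1.17 in control cells (1.14 to 1.21). Among cells of 30000 to 60000 UMIs, a range chosen after the values were seen, they were 1.10 (0.938 to 1.29) and 1.11 (1.05 to 1.17), so that the interval in knockdown cells included 1. The folds of S over G1 there were 1.23 in knockdown (1.10 to 1.38) and 1.06 in control cells (1.02 to 1.10). MOGS was at 14.6 in S, 14.6 in G2M and 14.0 in G1 knockdown cells and at 13.3, 13.2 and 13.0 in control cells, differences within counting error.

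Over all depths PRKCSH went opposite ways in the libraries. In knockdown cells it stood at 47.7 CPM in S, 52.0 in G2M and 44.0 in G1, and in control cells at 77.9, 78.2 and 84.0. The fold of G2M over G1 was 1.18 in knockdown (1.10 to 1.26) and 0.931 in control cells (0.894 to 0.970). Since PRKCSH was lower in deeper cells, the phases were also set side by side within the same 30000 to 60000 UMIs. Depth still differed between the phases in this range. Control cells had medians of 38912 UMIs in G1, 47928 in S and 47118 in G2M, and knockdown cells 40461, 46588 and 43598. This range therefore does not take depth out of the contrast. Within it PRKCSH stood at 53.5 in S (48.4 to 58.9), 54.5 in G2M (47.5 to 62.2) and 42.1 in G1 (40.1 to 44.1) knockdown cells. In control cells it stood at 77.0 in S, 75.8 in G2M and 83.0 in G1. The fold of S over G1 in this range was 1.27 in knockdown (1.14 to 1.42) and 0.928 in control cells (0.884 to 0.973). Each phase was also split at its median depth. The deeper G1 control cells had PRKCSH at 81.1 CPM (78.6 to 83.6). The shallower S control cells had 80.1 (77.0 to 83.2) and the shallower G2M ones 80.2 (75.7 to 84.9), so these intervals overlapped. In knockdown cells the same parts stood at 41.7 (39.9 to 43.5), 55.2 (50.9 to 59.8) and 56.9 (51.1 to 63.1). The part of depth in the control contrast was not tested. Whether the libraries differ in the phase contrast could not be tested with 1 library each.

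The gap between the libraries in PRKCSH was accordingly largest in G1. Its log2 ratio of knockdown over control was -0.93 in G1 (-0.99 to -0.87), -0.71 in S (-0.78 to -0.63) and -0.59 in G2M (-0.68 to -0.49). Among cells of 30000 to 60000 UMIs it was -0.98 in G1, -0.53 in S (-0.68 to -0.38) and -0.48 in G2M (-0.69 to -0.27), so that S and G2M no longer passed the size rule. In subclone-like cells, defined further on, it was -0.55 in G2M, again short of the rule. That of GANAB was -1.57, -1.50 and -1.57 in G1, S and G2M over all depths. That of MOGS was 0.11, 0.14 and 0.15, with intervals that included 0 in each phase. At 30000 to 60000 UMIs it was 0.10 in G1, 0.31 in S (0.01 to 0.60) and 0.46 in G2M (0.02 to 0.88).

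**Figure D3:**
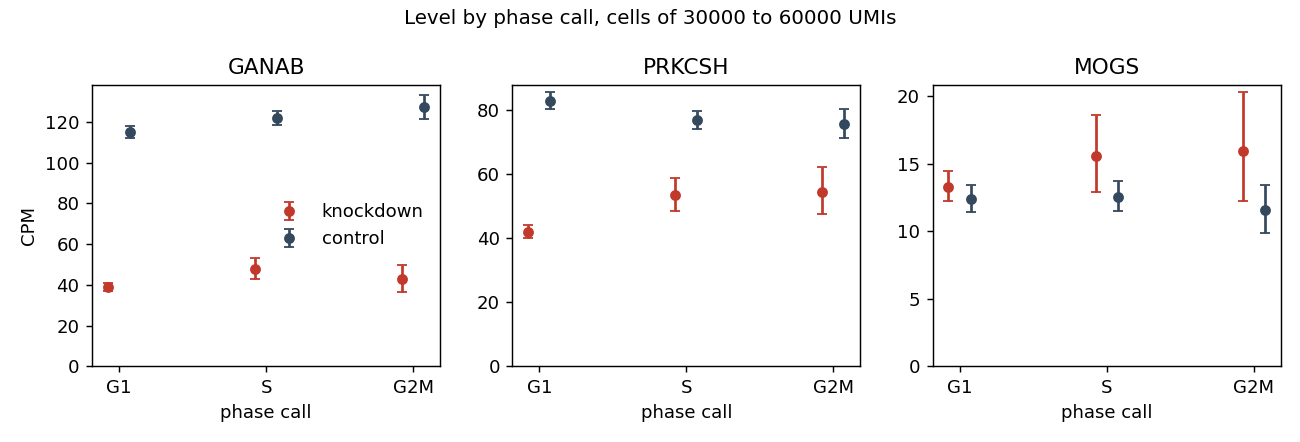
Level in CPM by phase call among cells of 30000 to 60000 UMIs, with exact Poisson 95% intervals, for knockdown (red) and control cells (dark blue). PRKCSH stood at 42.1 in G1 and 54.5 in G2M knockdown cells, and at 83.0 in G1 and 75.8 in G2M control cells. Median depth still differed between the phases.

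Correlations of the members over single cells were low before counting noise was taken into account. The Pearson correlation of GANAB with PRKCSH over thinned counts was 0.05 in 2672 knockdown cells and 0.09 in 4385 control cells. GANAB with MOGS gave 0.05 and 0.02, and PRKCSH with MOGS gave 0.07 and 0.02. Spearman values were 0.04 and 0.06, 0.05 and 0.01, and 0.06 and 0.02 for the same pairs. These points share a library and a fixed total, and counts this sparse hold such values down. After the variance of counting was taken out, GANAB and PRKCSH correlated at 0.43 in knockdown and 0.59 in control cells. GANAB and MOGS then gave 0.74 and 0.48, and PRKCSH and MOGS 0.88 and 0.81. The corrected figures rest on small differences between variance and mean, so how strongly the members varied together is not settled by either set.

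Grouping cells by their GANAB count gives the relation in UMIs. Control cells with 4 or more thinned GANAB UMIs had 1.47 PRKCSH UMIs on average (1.38 to 1.57, 603 cells), and those with 0 had 1.18 (1.11 to 1.26, 876 cells). Knockdown cells with 2 GANAB UMIs had 0.808 PRKCSH UMIs (0.704 to 0.924, 266 cells), and those with 0 had 0.687 (0.646 to 0.730, 1507 cells). These knockdown intervals overlapped. Knockdown cells with 3 GANAB UMIs had 0.772 (0.561 to 1.04, 57 cells), and those with 4 or more had a mean of 1 (0.602 to 1.56, 19 cells). The knockdown means were thus below the control means in every class of GANAB count, though at 4 or more the intervals of the libraries overlapped. Control cells that happened to have no GANAB UMI had more PRKCSH than knockdown cells with 2. MOGS ran between 0.208 and 0.316 in knockdown cells and between 0.192 and 0.221 in control cells over the same classes, with intervals that overlapped within each library.

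**Figure D4:**
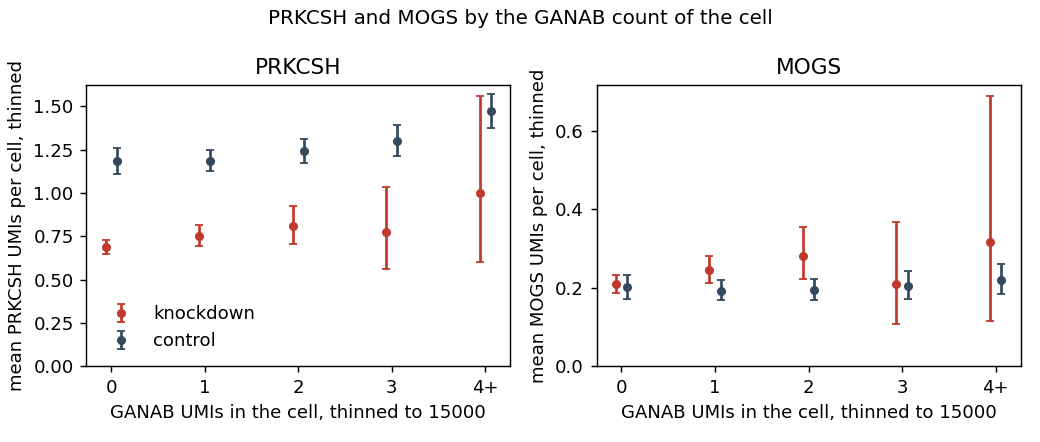
Mean thinned UMIs per cell of PRKCSH and MOGS, with exact Poisson 95% intervals, in cells grouped by their thinned GANAB count, for knockdown (red) and control cells (dark blue). PRKCSH in control cells ran between 1.18 at 0 GANAB UMIs and 1.47 at 4 or more. It was above the knockdown mean in every class, with overlapping intervals at 4 or more.

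The genes most like each member were ranked by Pearson correlation of log counts over control cells, among 2497 genes with at least 50 CPM in control (2498 for MOGS, which is below that level). For GANAB these were CANX (calnexin), PRKDC (the catalytic subunit of DNA-dependent protein kinase), AHNAK (a very large scaffold protein), ITGB1 (the integrin beta 1 chain) and CLTC (the clathrin heavy chain), with correlations of 0.08, 0.10, 0.03, 0.09 and 0.05 in knockdown cells and 0.17, 0.17, 0.14, 0.14 and 0.13 in control cells. The ninety-ninth percentile of all these genes was 0.09 in knockdown and 0.11 in control cells. CANX, which encodes the lectin that holds the product of glucosidase II, was first in control cells and at place 55 in knockdown cells. PRKDC, level with CANX at 0.17 in control cells, was at place 9 in knockdown cells. CANX was at 366 CPM and PRKDC at 374 in control cells, both above GANAB. In knockdown cells the highest was PDIA4, an ER disulfide isomerase, at 0.12.

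For PRKCSH the leading genes included FLNA (filamin A), PSAP (a precursor of lysosomal activators), CTNND1 (p120 catenin) and EDIL3, at 0.10, 0.04, 0.07 and 0.03 in knockdown and 0.09, 0.09, 0.08 and 0.07 in control cells. In knockdown cells the highest was RPN1, an oligosaccharyltransferase subunit, at 0.11. GANAB stood at place 200 on the PRKCSH ranking in knockdown cells and 42 in control cells. These correlations are not corrected for counting noise, which holds them down more for genes of low counts. FLNA was at 307 CPM and PSAP at 1120 in control cells, beside 127 for GANAB. The places therefore do not show which genes varied most like PRKCSH. For MOGS the leading genes DLD, CHMP3, PTPN14, FLNA and SLC12A5 reached 0.06 at most in control cells. Of them FLNA stood at 0.08 in knockdown cells and the other 4 between -0.01 and 0.01, so of these 5 only FLNA was high in both. PRKCSH itself stood at place 10 on the MOGS ranking in knockdown cells, at 0.07, above the ninety-ninth percentile of 0.06, and at place 253 in control cells. GANAB stood at place 71 there in knockdown and 700 in control cells.

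Most of the enzymes and lectins that act next to the glucosidases passed the size rule in neither direction, as did most measured genes. Of 16 listed genes 14 were measured, and 1 was lower and 1 higher by the size rule, against the background of 10.4% and 7.69% of all measured genes. The list median was -0.04, beside -0.07 over all measured genes. CALR, calreticulin, was the lower one, at 284 CPM in knockdown and 530.1 in control cells. Its membrane-bound relative CANX stood at 353 and 366, PDIA3, the disulfide isomerase that works with both, at 120.3 and 145, and MLEC (malectin, a lectin for diglucosylated glycans) at 135 and 149.

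The higher one was ALG10B, at 10.5 CPM in knockdown and 6.02 in control cells. It adds the last glucose to the glycan precursor, and its near-identical copy ALG10 was at 6.05 and 6.15, so reads may be split between them and both values are uncertain. In subclone-like cells ALG10B stood at 10.6 and 8.32, which does not pass the size rule. ALG5, which makes the glucose donor, stood at 57.4 and 58.7. The glucosyltransferases ALG6 and ALG8 stood at 12.3 and 12.9 and at 32.6 and 34.6. UGGT1 and UGGT2, the folding sensor that puts a glucose back and its relative, stood at 21.1 and 24.4 and at 25.7 and 24.7. MANEA and MANEAL, of the endomannosidase family, whose member MANEA cuts glucosylated mannose from glycans without the glucosidases, stood at 14.2 and 12.8 and at 12.5 and 11.3. MAN1B1, the mannosidase that trims after the glucosidases, stood at 35.2 and 35.7. GAA, the lysosomal relative of GANAB, was at 12.2 and 11.4, and GANC, another relative, was too low to be measured, at 4.86 and 3.71. Neither GAA nor an endomannosidase passed the size rule.

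The genes next to GANAB did not share its ratio. None of the 10 nearest measured genes of GANAB had a ratio as low, and their median log2 ratio was -0.04. ASRGL1 had the lowest, at 17.5 CPM in knockdown and 34.4 in control cells (-0.98), and AHNAK the highest, at 316 and 244 (0.37). Around MOGS, itself at 0.12, the median was 0.15, with AUP1 at 73.7 and 83.1 (-0.17) and MRPL53 at 10.98 and 6.29 (0.80). CCDC151 overlaps PRKCSH on the opposite strand and was at 1.63 and 1.79 CPM. The sources used here do not give whether counting used strand.

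**Figure D5:**
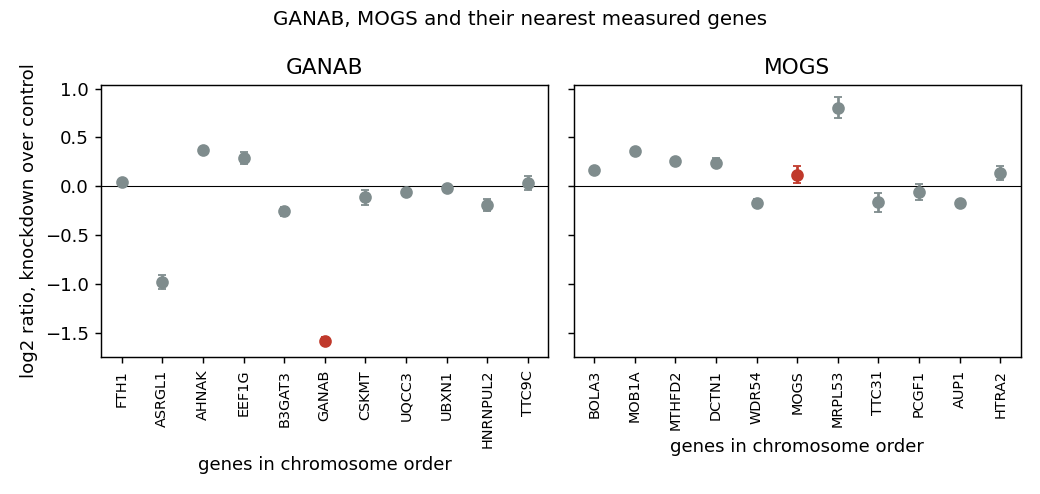
Log2 ratio of knockdown over control for GANAB and MOGS (red) and the 5 nearest measured genes on either side (grey), in chromosome order, with exact conditional binomial 95% intervals. GANAB (-1.58) lay below all 10 of its neighbours, and MOGS (0.12) lay among its own.

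Some control cells carry the marker genes of the knockdown cells. Cells with more UMIs of FAM133A, TMEM132D-AS1, SPANXB1 and SEMA3A than of MAN1A1 and CDH2 were called subclone-like, which took in 2618 knockdown and 704 control cells, while 3320 control cells had fewer. GANAB was at 42.0 CPM in the subclone-like knockdown cells and 131 in the subclone-like control cells, a log2 ratio of -1.64 (-1.70 to -1.59). PRKCSH was at 46.4 and 78.5 (-0.76; -0.82 to -0.69), and MOGS at 14.3 and 12.4 (0.20; 0.05 to 0.35). Between the 2 kinds of control cell the log2 ratio of subclone-like over the others was 0.06 for GANAB (0.01 to 0.10), -0.04 for PRKCSH (-0.10 to 0.02) and -0.09 for MOGS (-0.24 to 0.05). PRKCSH thus stood at nearly the same level in both kinds of control cell. The part of subclone make-up in its lower level in the knockdown library was not tested. In 1495 control cells the marker sums lay within 2 UMIs of each other. With a margin of at least 10 UMIs, added after the values were seen, 2004 knockdown and 256 control cells remained. PRKCSH was at 45.2 and 74.7 CPM in them and GANAB at 42.7 and 136. With the same margin the other way, 760 control cells had PRKCSH at 78.1 CPM.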

How the data were processed

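The deposited files of both libraries give raw counts of UMIs for every gene in every barcode. The submitters' processing notes name Cell Ranger 3.1.0 and the build GRCh38, and the file headers give the same software version. Libraries were made with 10x Chromium 3′ v3 chemistry and 10000 cells per channel, per the labels' protocols. Each matrix lists 6794880 barcodes, so the authors had not restricted it to cells. Use of a mouse genome beside the human one, and of strand in counting, is not stated in those sources. Doublets were not called.

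Barcodes with at least 15000 UMIs and at most 20% MT- UMIs were kept, and UMIs were summed per library and scaled to CPM. No labels give replicates, so each group is 1 library and no test was run. Intervals are exact Poisson, exact conditional binomial or Clopper-Pearson. Cells were thinned without replacement to 15000 UMIs with a fixed seed (numpy 2.4.6), and phases were called with scanpy 1.11.5. The code was tested on simulated data. Genes were matched by identifier to GENCODE release 29 for 33456 of 33538 genes. Promoter windows were matched by symbol, with 1 window for GANAB, 3 for PRKCSH, 1 for CALR and 0 for MOGS.

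The members, gene lists, marker genes, naming rule and settings were chosen with earlier results of these data known. By the naming rule, the 5 genes most correlated with each member in control cells, pathway members past a ratio of 1.5 or of high level, and the neighbours of lowest and highest ratio were named, with roles of other pathway members added. The genes with the highest correlation in knockdown cells (PDIA4, RPN1) were named after their values were seen. A gene correlated with PRKCSH and the neighbours of PRKCSH are not reported here.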

Additional observations from a re-analysis of the deposited data

Results flagged for a closer look

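PRKCSH was flagged because its phase contrast ran opposite ways in the libraries. The log2 ratio of S over G1 was 0.12 in knockdown cells (0.03 to 0.20) and -0.11 in control cells (-0.16 to -0.06), so that knockdown minus control came to 0.23. The log2 ratio of G2M over G1 was 0.24 in knockdown cells (0.14 to 0.34) and -0.10 in control cells (-0.16 to -0.04), so that knockdown minus control came to 0.34. The difference was not tested, since each group is 1 library. Among cells of 30000 to 60000 UMIs the G2M contrast was 0.37 in knockdown (0.16 to 0.58) and -0.13 in control cells (-0.23 to -0.03). Depth still differed between the phases in this range. GANAB had ratios above 0 in both libraries for both contrasts over all depths. Those of MOGS lay between 0.03 and 0.06, with intervals that all included 0.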

How the results depend on the processing

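The 3 log2 ratios were recomputed under 10 planned settings and 2 added after the data were seen, and each kept its direction and its side of the size rule under these 12. Of the phases G1 alone was among them; the PRKCSH ratio fell short of the rule in S (-0.53) and G2M (-0.48) cells of 30000 to 60000 UMIs and in subclone-like G2M cells (-0.55). The ratio of GANAB left its counting interval when divided by the median ratio over measured genes (-1.51), in subclone-like cells (-1.64) and in those with a margin of 10 UMIs (-1.67). That of PRKCSH left it under the median ratio (-0.72), in G1 cells (-0.93), with the margin (-0.73) and in cells of 30000 to 60000 UMIs (-0.83). That of MOGS stayed within its interval under all 12. Other settings were other UMI and MT- limits, equal weight per cell, no cells above 100000 UMIs, totals without MT-, RPL and RPS genes, and 5% of UMIs taken off as free RNA. Thinned to 30000 UMIs, with 733 knockdown and 916 control cells left out, cells without a UMI made up 34.6% of knockdown and 5.16% of control cells for GANAB, 28.9% and 11.6% for PRKCSH, and 67.3% and 69.1% for MOGS; the greater depth lowers such shares by construction. At a minimum of 50 CPM 1 pathway gene in place of 2 passed the size rule, since ALG10B was not measured. No paired analysis was possible because each group is 1 library.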

Other observations

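In the knockdown library 19 cells had more UMIs of MAN1A1 and CDH2 than of the 4 subclone markers. GANAB stood at 89.1 CPM in these cells (exact Poisson interval 70.0 to 112, 74 UMIs), beside 126 in the 3320 control cells of that kind. PRKCSH stood at 51.8 (37.5 to 69.8) beside 80.4, and MOGS at 18.1 (10.1 to 29.8) beside 13.3. In 107 knockdown cells the marker sums lay within 2 UMIs of each other. With the margin of 10 UMIs only 4 knockdown cells of that kind remained, with GANAB at 86.3 CPM (54.7 to 129, 23 UMIs). Over knockdown cells, the correlation of thinned counts with the mitochondrial share was 0.07 for GANAB, 0.09 for PRKCSH and 0.06 for MOGS, and over control cells 0.08, 0.02 and 0.00.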
